A study of Homo sapiens with 4 samples.

Results

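ATF4, ATF5 and 8 genes of the same stress response, ATF3, DDIT3, TRIB3, CHAC1, SESN2, DDIT4, ASNS and PCK2, were described in SW620 colorectal cancer cells with and without GAP43 overexpression. They were taken by gene symbol, and all 10 were found among the 33845 genes of the table. In the integrated stress response, kinases that sense missing amino acids, unfolded protein, heme shortage or double-stranded RNA phosphorylate the initiation factor eIF2. Most translation then slows while the mRNAs of ATF4 and ATF5, which carry upstream open reading frames, are translated better. The ATF4 protein, paired with C/EBP proteins, switches on genes for amino acid synthesis, uptake and tRNA charging, together with genes that end the response or lead to cell death.

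SW620 is an established line of colorectal cancer cells that came from a lymph node metastasis. Cells carrying a Flag-tagged GAP43 plasmid (2 libraries, called GAP43) were compared with cells carrying a control plasmid (2 libraries, called control), all stably transfected and at passages 12 to 15. GAP43 is a protein of the inner cell membrane, known mainly from the growth cones of neurons. Which promoter drives it here, and whether a line was 1 clone or a pool, was not given in the sources used here. The labels do not say that the 2 libraries of a group came from separate cultures, and p-values therefore reflect the spread of these libraries alone, which may be technical. In bulk RNA, fewer cells of a type and less RNA per cell cannot be told apart.

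Values are FPKM, the fragments of a gene scaled to its length and to the size of the library. Summed over the genes of the table, the fragments recovered from FPKM and gene length were 17473071 to 21883137 a library. The FPKM values summed to 292286.2 and 307463.2 in control replicates 1 and 2 and to 288129.5 and 264760.5 in GAP43 replicates 1 and 2. GAP43 itself stood at 4.40 and 4.14 FPKM in the controls and at 16.3 and 9.89 FPKM with GAP43, as labelled. Of 10 markers of colorectal epithelium, 3 (CDX1, KRT20 and LGALS4) were under 1 FPKM in every library. The summed level of the 10 was 1720 and 2420 FPKM in the controls and 1810 and 1740 FPKM with GAP43, so it was highest in control replicate 2. This sum rests mainly on KRT8, KRT19 and KRT18, at 1113, 723.6 and 347.6 FPKM in that library. KRT18, CDX1, CDX2, KRT20 and LGALS4 were highest in other libraries. The 4 endothelial markers were all under 1 FPKM, as were 5 of 6 leukocyte markers and 4 of 5 fibroblast markers found, and no marker of these 3 lists passed 9.07 FPKM.

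Genes of this response are known for a composite element in their promoters that C/EBP and ATF proteins bind together, spelled TGATGNAA, and it was searched on both strands in the 250 bases before each RefSeq start (GRCh38.p14). A match was found in 3 of the 10 genes (ASNS, ATF3 and CHAC1), against 3.89% of 27305 genes with a promoter. Genes with several starts had several windows. By window, 3 of 18 matched for the 10 genes and 1104 of 35116 for all genes. Matches also stood before 6 of 28 genes for amino acid synthesis, transport and tRNA charging. The palindromic cAMP response element TGACGTCA, a separate motif that reads alike on both strands, was found in 0 of the 10 and in 2.03% of all genes. The windows below are shown because their genes span the responses described here, from ASNS and CHAC1 to SLC1A5, and capitals mark the match in the strand of the gene, where TTGCATCA and TTTCATCA are the motif read from the other strand.
ASNS, chr7:97872449-97872496, minus strand: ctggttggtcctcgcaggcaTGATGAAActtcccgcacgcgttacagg
CHAC1, chr15:40953242-40953289, plus strand: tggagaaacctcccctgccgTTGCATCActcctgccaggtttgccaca
ATF3, chr1:212565196-212565243, plus strand: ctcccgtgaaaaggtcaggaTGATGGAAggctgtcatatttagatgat
CEBPG, chr19:33374051-33374098, plus strand: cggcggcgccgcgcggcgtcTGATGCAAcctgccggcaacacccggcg
AARS, chr16:70289666-70289713, minus strand: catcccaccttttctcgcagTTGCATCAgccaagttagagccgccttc
GARS, chr7:30594825-30594872, plus strand: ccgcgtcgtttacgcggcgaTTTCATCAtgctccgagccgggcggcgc
MTHFD1L, chr6:150866337-150866384, plus strand: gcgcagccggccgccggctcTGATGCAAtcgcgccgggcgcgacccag
SLC1A5, chr19:46784884-46784931, minus strand: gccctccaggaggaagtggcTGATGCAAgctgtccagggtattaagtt
The match in ASNS began 68 bases before the RefSeq start of its window, that in ATF3 191 bases and that in CHAC1 209 bases before theirs. RefSeq starts differ from those of the gene models in the table, and the windows of ASNS and CHAC1 lie within the positions given for these genes below. A match is a description of these letters and was not tested as a binding site.

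All 10 genes reached the minimum for testing, an average of 1 FPKM across the libraries, as did 13507 genes in all. By level per length, ATF4 was first with a mean of 187 FPKM over the 4 libraries, followed by DDIT4 (55.4 FPKM), TRIB3 (38.9 FPKM), ASNS (19.4 FPKM), DDIT3 (19.2 FPKM), PCK2 (15.0 FPKM), SESN2 (9.24 FPKM), CHAC1 (6.89 FPKM), ATF5 (4.15 FPKM) and ATF3 (1.44 FPKM). The lowest library of ATF4 was above the highest library of every other gene here. Among the neighbours DDIT4 to ATF5 the ranges of the libraries overlapped, while the highest library of ATF3 (2.97 FPKM) was below the lowest of ATF5 (3.13 FPKM). The fragments behind one value ran from 52 for ATF3 in GAP43 replicate 2 to 14365 for ATF4 in control replicate 2.

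**Figure D1:**
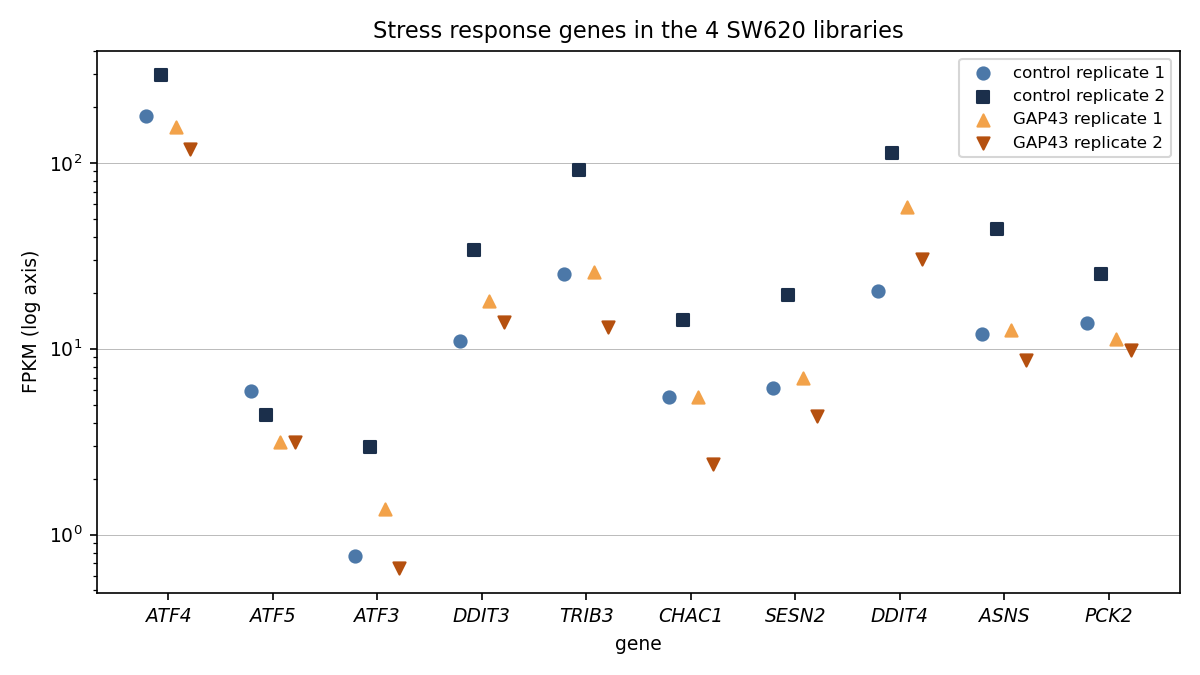
Level of each of the 10 genes (x axis) in FPKM on a log axis (y axis), with 1 point for each of the 4 libraries. Control replicate 2 is the highest library for 9 of the 10 genes, and ATF5 is the exception.

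The control libraries were compared with each other first, since their difference enters the spread within groups that the test of GAP43 uses. In 9 of the 10 genes control replicate 2 was at least 1.5-fold above control replicate 1 on the log2(FPKM + 1) scale, where 3.64% of all genes tested passed that fold upward and 2.74% downward. The median difference of the 10 was 1.37 on the log2 scale, against 0.02 over all genes tested. With 1 library on each side this comparison has no test, and the intervals given below for ratios of FPKM are exact (Clopper-Pearson) 95% intervals that cover counting error only.

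ATF4 (chr22:39519695-39522685), the factor at the centre of the response, was at 179 and 296 FPKM in control replicates 1 and 2 and at 156 and 119 FPKM in GAP43 replicates 1 and 2. Control replicate 2 was 1.65 times control replicate 1 (interval 1.61 to 1.70), and both GAP43 libraries were below both controls. ATF5 (chr19:49928702-49933935), a related factor under the same translational control, was at 5.90 and 4.41 FPKM in the controls and at 3.13 and 3.16 FPKM with GAP43. It was the one gene of the 10 that was lower in control replicate 2 (ratio 0.748, interval 0.635 to 0.880), and its 2 GAP43 libraries were level with each other (ratio 1.01, interval 0.821 to 1.24). ATF5 shares 1062 bases with NUP62 and 838 bases with IL4I1 on the opposite strand, and NUP62 stood at 14.3 and 12.1 FPKM in the controls and at 12.8 and 11.1 FPKM with GAP43. Whether counting used the strand is not stated in the sources used here, so fragments of overlapping genes cannot be told apart.

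ATF3 and DDIT3 encode factors that ATF4 switches on, and DDIT3 (CHOP) is known for its part in cell death under lasting stress. ATF3 (chr1:212565334-212620777) was at 0.762 and 2.97 FPKM in the controls and at 1.38 and 0.659 FPKM with GAP43, so control replicate 1 lay between the 2 GAP43 libraries and control replicate 2 above all. DDIT3 (chr12:57516588-57520517) was at 11.0 and 33.9 FPKM in the controls and at 18.0 and 14.0 FPKM with GAP43, which both lay between the controls. Control replicate 2 was 3.90 times control replicate 1 for ATF3 (interval 2.95 to 5.22) and 3.09 times for DDIT3 (interval 2.71 to 3.55). DDIT3 shares 982 bases with MARS, the methionyl-tRNA synthetase gene on the other strand, which was at 27.3 and 46.2 FPKM in the controls and at 24.5 and 22.9 FPKM with GAP43.

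The next 4 genes act downstream of ATF4. TRIB3, a pseudokinase that holds back ATF4 and AKT, was at 25.4 and 91.2 FPKM in the controls and at 26.0 and 13.1 FPKM with GAP43 (chr20:362835-397559). Control replicate 1 and GAP43 replicate 1 were level (ratio of GAP43 replicate 1 to control replicate 1 1.02, interval 0.960 to 1.09), with control replicate 2 above them by 3.59 times control replicate 1 and GAP43 replicate 2 below. CHAC1 (chr15:40952962-40956519), an enzyme that degrades glutathione, showed the same order, at 5.48 and 14.2 FPKM in the controls and at 5.47 and 2.39 FPKM with GAP43. Its GAP43 libraries were below both controls only by the difference between 5.48 and 5.47 FPKM, which counting error covers (ratio 0.998, interval 0.832 to 1.20). SESN2 (chr1:28259527-28282491), a leucine sensor that restrains mTORC1, was at 6.17 and 19.5 FPKM in the controls and at 6.92 and 4.35 FPKM with GAP43. DDIT4 (chr10:72273920-72276036), also called REDD1 and also an inhibitor of mTORC1, was at 20.4 and 113 FPKM in the controls and at 58.1 and 30.5 FPKM with GAP43. Both GAP43 libraries lay between the controls for DDIT4, and control replicate 2 was 5.51 times control replicate 1 (interval 5.13 to 5.93). Of all 13507 genes tested, DDIT4 had rank 2 for the size of its increase from control replicate 1 to control replicate 2.

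ASNS and PCK2 encode metabolic enzymes. ASNS (chr7:97852118-97872542), asparagine synthetase, was at 12.0 and 44.2 FPKM in the controls and at 12.6 and 8.72 FPKM with GAP43. Control replicate 2 was 3.68 times control replicate 1 (interval 3.44 to 3.94), and GAP43 replicate 1 was level with control replicate 1 (ratio 1.05, interval 0.966 to 1.14). PCK2 (chr14:24094053-24110598), the mitochondrial phosphoenolpyruvate carboxykinase, was at 13.7 and 25.2 FPKM in the controls and at 11.3 and 9.83 FPKM with GAP43, so that both GAP43 libraries were below both controls. PCK2 lies within NRL on the other strand, and NRL did not pass 0.366 FPKM in any library.

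**Figure D2:**
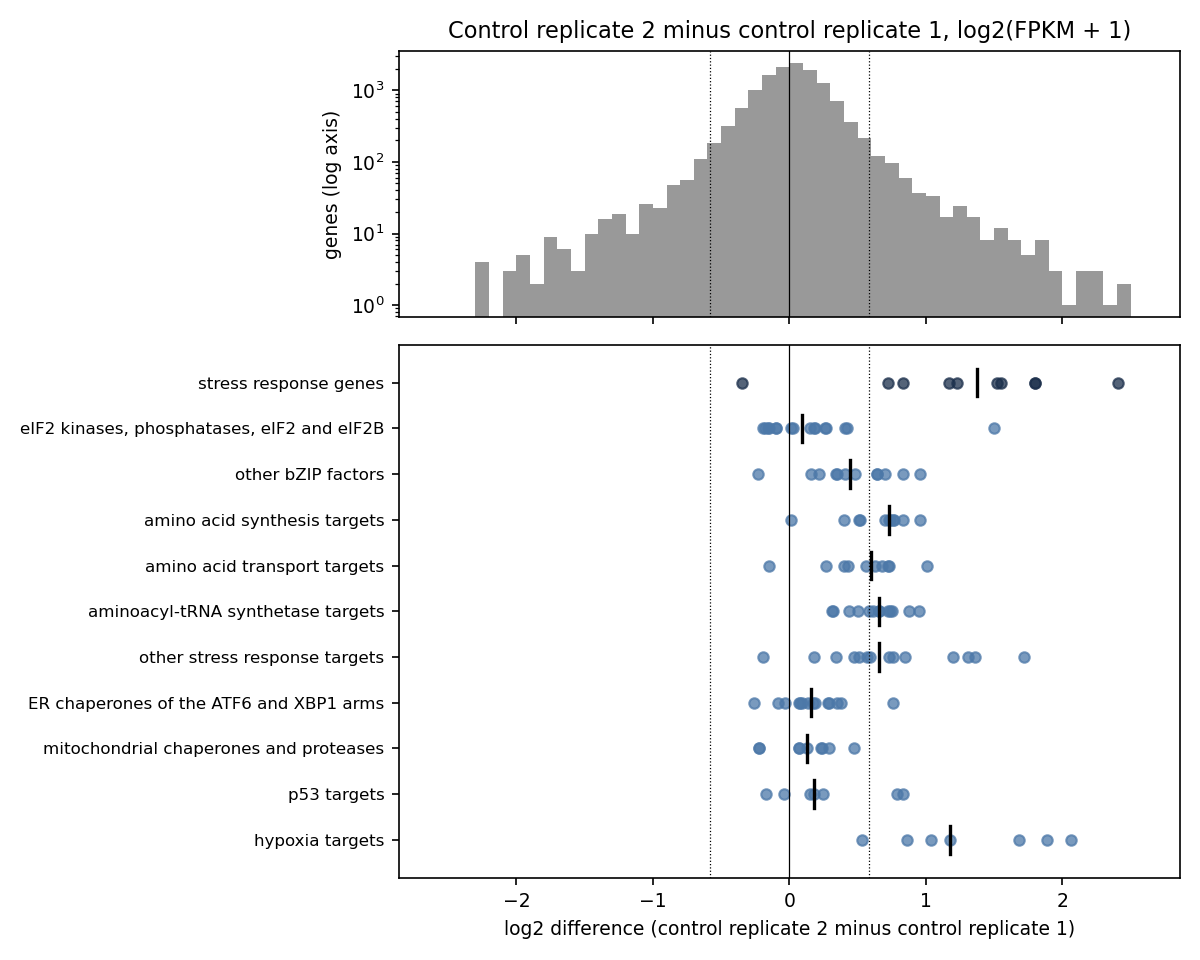
Top: number of genes (log axis) by the difference between control replicate 2 and control replicate 1 in log2(FPKM + 1), for the 13507 genes tested. Bottom: the same difference for each gene of the stress response and of the lists of related genes (points), with the median of each list (bar) and dotted lines at 1.5-fold in either direction. The medians run from 0.09 for the eIF2 genes to 1.37 for the 10 stress response genes.

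The study asked which transcripts differ between GAP43-overexpressing and control SW620 cells. All 10 genes had a lower mean of log2(FPKM + 1) in the GAP43 libraries, as did 7492 of the 13507 genes tested. The median log2 fold change of the 10 was -0.76, against -0.04 over all genes tested. With limma, 2 of the 10 (ATF5 and PCK2) were lower at an unadjusted p under 0.05, a side on which 2.84% of all genes tested fell, and 0 were higher, against 3.05% of all genes. After the Benjamini-Hochberg adjustment over all genes, 0 of the 10 passed, as did 0% of all genes by limma on FPKM and 0 genes by voom on recovered fragments, with 795 genes at an unadjusted p under 0.05 by the former and 799 by the latter. Both GAP43 libraries were below both controls for ATF4, ATF5, CHAC1 and PCK2, so for 4 of 10 genes against 24.1% of all genes tested. An exact permutation test of 2 against 2 libraries cannot go below p = 0.333.

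ATF5 was at 5.16 ± 1.05 FPKM (SD, n = 2) in the controls and at 3.14 ± 0.0174 FPKM (SD, n = 2) in the GAP43 cells, a log2 fold change of -0.56 (SE 0.19, limma adjusted p = 0.692). PCK2 was at 19.5 ± 8.10 FPKM and 10.6 ± 1.02 FPKM (SD, n = 2 each), a log2 fold change of -0.77 (SE 0.29, limma adjusted p = 0.692). Both missed the unadjusted threshold with FPKM rescaled to the same sum in each library, with log2 fold changes of -0.47 for ATF5 and -0.66 for PCK2, and ATF5 also missed it by voom on recovered fragments, at -0.55. ATF4 was at 237 ± 82.5 FPKM and 137 ± 26.3 FPKM (SD, n = 2 each), a log2 fold change of -0.76 (SE 0.32, limma adjusted p = 0.692). On the log2 scale the largest difference was that of TRIB3, at 58.3 ± 46.5 FPKM and 19.6 ± 9.12 FPKM (SD, n = 2 each), with a log2 fold change of -1.34 (SE 0.60, limma adjusted p = 0.692). CHAC1 and ASNS had log2 fold changes of -1.09 (SE 0.46) and -1.08 (SE 0.55), and SESN2 one of -0.90 (SE 0.48). The smallest were those of ATF3 (-0.41, SE 0.42), DDIT3 (-0.28, SE 0.48) and DDIT4 (-0.19, SE 0.75), where the standard error was as large as the difference or larger.

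Control replicate 2 was the highest of the 4 libraries for 9 of the 10 genes, against 32.6% of all genes tested, and the comparison was therefore repeated without it, which was one of the planned settings. The lone control is then assumed to vary like the GAP43 libraries. For the 9 genes the fold change must rise on leaving out control replicate 2, so the direction of that shift is not a separate result. Without it the median log2 fold change of the 10 was -0.27 instead of -0.76, and 1 gene was lower at an unadjusted p under 0.05 (ATF5, log2 fold change -0.74) against 0.570% of all genes. DDIT4 turned to the other direction, at 1.01 on the log2 scale, and was the 1 gene of the 10 that was higher at that threshold, against 2.00% of all genes. The log2 fold changes of ATF3 and DDIT3 turned to 0.17 and 0.50. That of ATF4 was -0.40, that of PCK2 -0.35, that of TRIB3 -0.44, that of CHAC1 -0.47, that of ASNS -0.18 and that of SESN2 -0.14. Without control replicate 1 instead, 8 of the 10 were lower at an unadjusted p under 0.05, against 1.71% of all genes. ASNS was the 1 gene of the 10 that also passed the adjustment with limma there, among 15 of all genes. Control replicate 2 is then the only control, so for the 9 genes the fold change must fall on leaving out control replicate 1. The count of lower genes and the ASNS result there rest on that 1 control library and are not a separate result. ATF5 was the gene that moved the other way with the controls, with -0.39 without control replicate 1 and -0.74 without control replicate 2. Without GAP43 replicate 1 the number lower was 4, against 18.6% of all genes, and without GAP43 replicate 2 it was 1, against 2.83% of all genes.

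**Figure D3:**
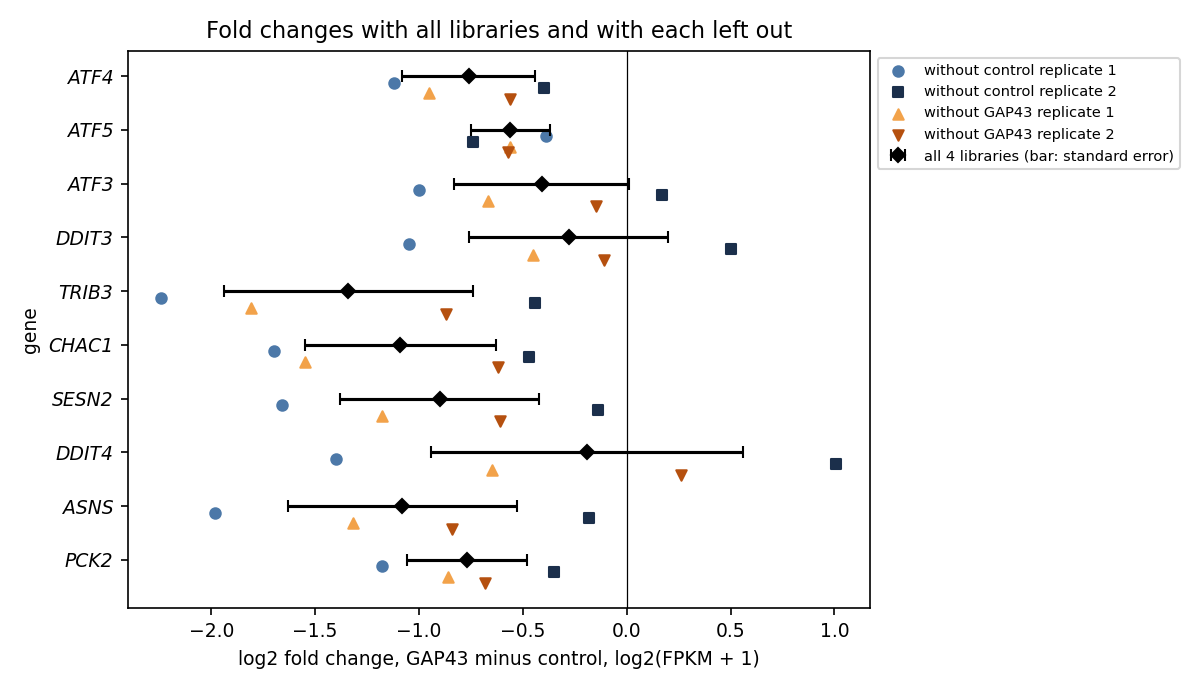
Log2 fold change between GAP43 and control libraries (x axis, log2(FPKM + 1) scale) for each of the 10 genes (y axis). Diamonds with standard error bars use all 4 libraries and the other points leave out 1 library each. Without control replicate 2 the values run from -0.74 for ATF5 to 1.01 for DDIT4.

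The 2 GAP43 libraries also differed from each other. GAP43 replicate 2 was below GAP43 replicate 1 for 9 of the 10 genes, against 57.2% of all genes tested, and ATF5 was again the exception. It was at least 1.5-fold lower for 3 of the 10 (TRIB3, CHAC1 and DDIT4), against 7.93% of all genes. The ratio of GAP43 replicate 2 to replicate 1 was 0.504 for TRIB3 (interval 0.465 to 0.546), 0.437 for CHAC1 (interval 0.342 to 0.556) and 0.525 for DDIT4 (interval 0.490 to 0.562). GAP43 mRNA itself was lower in GAP43 replicate 2, at 9.89 against 16.3 FPKM, and its part in these differences was not tested. Across genes, GAP43 replicate 2 was the library least like the others, with Pearson correlations of 0.940 to 0.952 against 0.978 to 0.982 among the other 3.

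The wider pathway was then read in lists of known genes. The upstream genes encode the eIF2 kinases, GCN1 and IMPACT, which act on the kinase GCN2, the phosphatase subunits and the subunits of eIF2 and eIF2B. Their median difference between the controls was 0.09 on the log2 scale over 16 genes. Of the 16, only PPP1R15A (GADD34) was at least 1.5-fold higher in control replicate 2, against 3.64% of all genes tested. PPP1R15A is itself induced by the response and returns eIF2 to its active form. It was at 19.9 and 58.1 FPKM in the controls and 33.5 and 21.4 FPKM with GAP43. The 4 kinases EIF2AK1, EIF2AK2, EIF2AK3 and EIF2AK4 had log2 fold changes between GAP43 and control of 0.01, -0.10, -0.04 and -0.06. Of the 16 genes 1 was lower at an unadjusted p under 0.05, against 2.84% of all genes tested, and 0 were higher, against 3.05%. The lower gene was EIF2B3, a subunit of the exchange factor eIF2B (12.2 and 12.5 FPKM against 9.69 and 6.77 FPKM, limma adjusted p = 0.692). The next smallest p of the list were those of IMPACT (log2 fold change -0.49) and EIF2S1 (log2 fold change -0.46).

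The genes for amino acid synthesis, uptake and tRNA charging are the classical targets of ATF4. Of 34 tested, 33 were highest in control replicate 2, against 32.6% of all genes tested. The exception was SLC1A5, whose promoter window is printed above, at 249 and 225 FPKM in the controls and 269 and 327 FPKM with GAP43. At least 1.5-fold higher in control replicate 2 were 7 of 11 synthesis genes, 5 of 10 transporters and 8 of 13 tRNA charging genes. The last are 12 synthetases and the tRNA exporter XPOT. Of all genes tested, 3.64% were higher by that fold and 2.74% lower, while 0 of the 34 were lower. The median difference of the 34 between the controls was 0.66 on the log2 scale, smaller than the 1.37 of the 10 stress response genes. Between GAP43 and control, 4 of the 34 were lower at an unadjusted p under 0.05, against 2.84% of all genes tested. Higher were 0, against 3.05% of all genes. The median log2 fold change of the 34 was -0.47, against -0.04 over all genes tested. Without control replicate 2 the median was -0.20. For the 33 genes that were highest in that library the fold change must rise on leaving it out, so the direction of the shift is not a separate result.

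The 4 genes were PYCR1 (the last step of proline synthesis), MTHFD2 (mitochondrial folate metabolism), PHGDH (the first step of serine synthesis) and WARS (tryptophanyl-tRNA synthetase). PYCR1 was at 64.3 and 85.2 FPKM in the controls and at 45.7 and 51.3 FPKM with GAP43, with a log2 fold change of -0.60 (SE 0.22, limma adjusted p = 0.692). MTHFD2 was at 17.8 and 35.5 FPKM against 15.8 and 11.4 FPKM, and PHGDH at 12.9 and 22.6 FPKM against 12.2 and 6.53 FPKM, so for both genes control replicate 1 was closer to GAP43 replicate 1 than to the other control. WARS was at 21.0 and 32.6 FPKM against 16.6 and 14.0 FPKM (log2 fold change -0.74, SE 0.25, limma adjusted p = 0.692). After WARS, the tRNA charging genes with the smallest p were YARS (log2 fold change -0.57) and AARS, at 140 and 237 FPKM in the controls and 124 and 110 FPKM with GAP43 (log2 fold change -0.64). Among the 10 transporters 0 passed the unadjusted threshold in either direction, against 2.84% of all genes tested lower and 3.05% higher. The smallest p were those of SLC1A4 (log2 fold change -0.41), SLC7A11 (-0.74) and SLC6A9 (-0.44). SLC7A11, the cystine transporter, was at 3.35 and 7.78 FPKM in the controls and at 3.74 and 1.89 FPKM with GAP43.

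**Figure D4:**
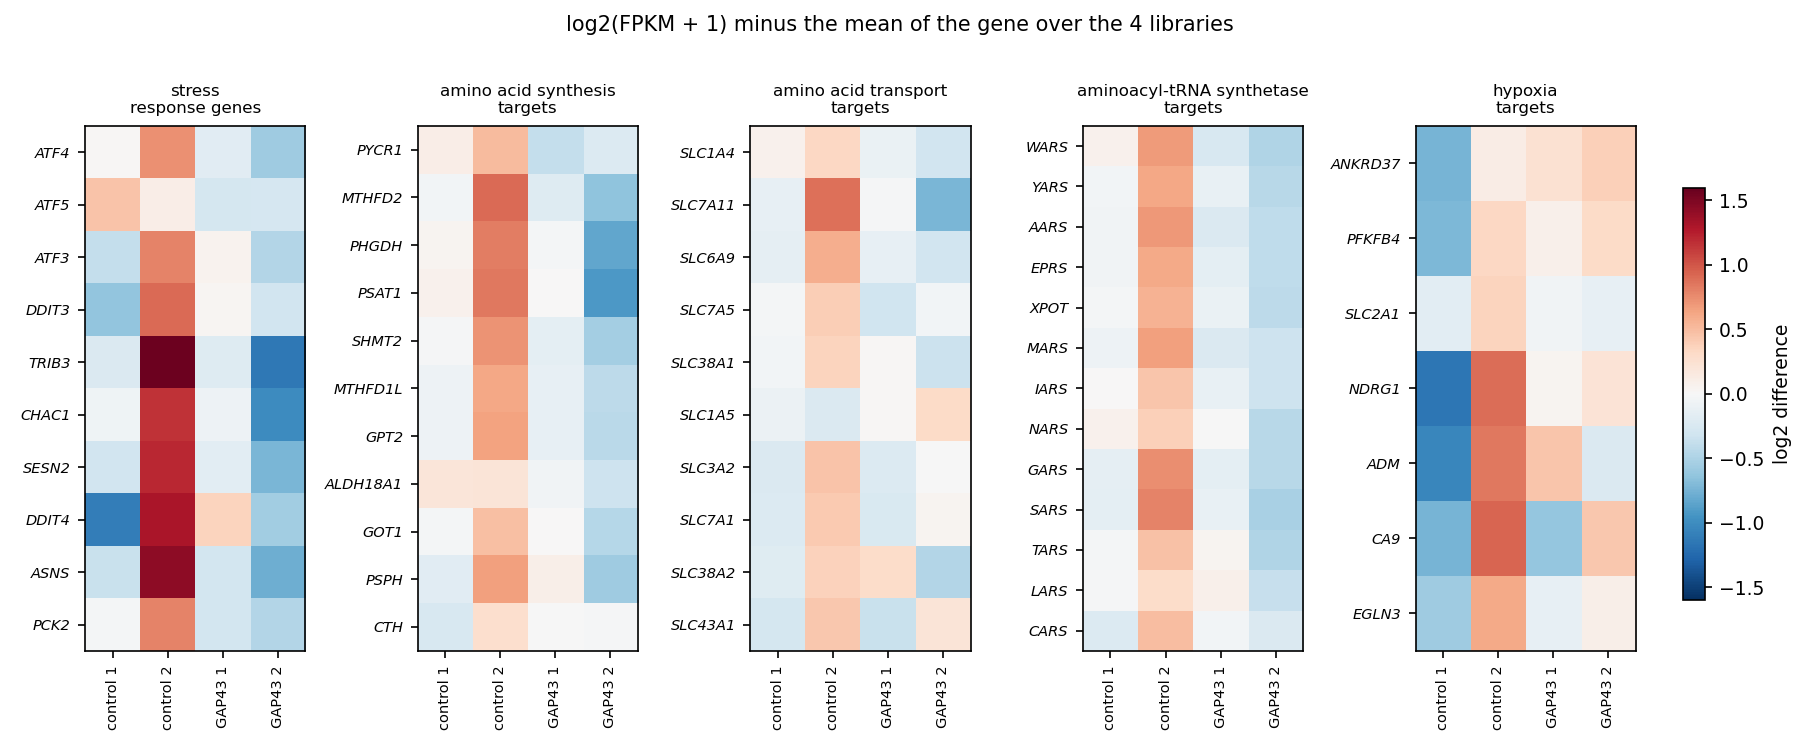
Heat map of log2(FPKM + 1) minus the mean of each gene over the 4 libraries (color, log2 units), with genes as rows and libraries as columns, for the stress response genes, 3 lists of ATF4 targets and the hypoxia targets. Control replicate 2 is highest for 33 of the 34 genes in the 3 target lists, and for the hypoxia targets control replicate 1 is the lowest library for each of the 7 genes.

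Of 18 other effectors of the response listed, 14 were tested, while NUPR1, FGF21, KLHL24 and FAM129A averaged under 1 FPKM. Of the 14, 8 were at least 1.5-fold higher in control replicate 2, against 3.64% of all genes tested. Among the 8 were GDF15, a secreted stress signal (24.9 and 84.5 FPKM in the controls, 58.9 and 43.0 FPKM with GAP43), and INHBE (1.87 and 6.11 FPKM, 2.36 and 2.23 FPKM). SESN3, a relative of SESN2, was the 1 gene of the 14 higher with GAP43 at an unadjusted p under 0.05, against 3.05% of all genes tested. It was at 4.51 and 3.84 FPKM against 6.48 and 6.62 FPKM (log2 fold change 0.55, SE 0.16, limma adjusted p = 0.692). SQSTM1 and EIF4EBP1, with log2 fold changes of -0.53 and -0.81, had the next smallest p of that list. Of 12 other bZIP factors, which can pair with ATF4 or stand beside it, 5 were at least 1.5-fold higher in control replicate 2. Lower with GAP43 at an unadjusted p under 0.05 was 1, JUND, against 2.84% of all genes tested (68.1 and 86.8 FPKM against 58.8 and 35.9 FPKM, limma adjusted p = 0.692). CEBPB and CEBPG, which dimerize with ATF4, were at 18.6 and 30.9 FPKM against 16.7 and 13.7 FPKM (log2 fold change -0.63) and at 13.1 and 21.0 FPKM against 12.7 and 9.29 FPKM (log2 fold change -0.57).

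The unfolded protein response has other arms beside eIF2, led by the factors ATF6 and XBP1. In the controls XBP1 was at 30.5 and 55.2 FPKM, and so at least 1.5-fold higher in control replicate 2, and ATF6 was at 5.31 and 6.97 FPKM. Next read were 14 chaperones and quality control genes of the ATF6 and XBP1 arms. Of these, 1 (HERPUD1) was at least 1.5-fold higher in control replicate 2, against 3.64% of all genes tested. It was at 10.7 and 18.8 FPKM in the controls and 13 and 9.41 FPKM with GAP43. The median difference of the 14 between the controls was 0.15. HSPA5 (BiP), the main chaperone of the endoplasmic reticulum, was at 204 and 260 FPKM in the controls and 208 and 207 FPKM with GAP43. Of the 14, 0 passed an unadjusted p under 0.05 with limma between GAP43 and control, against 2.84% of all genes tested lower and 3.05% higher. The smallest p were those of SDF2L1 (log2 fold change -0.45), PDIA6 (-0.23) and HERPUD1 (-0.34). ATF5 is known as a regulator of mitochondrial chaperones and proteases. Past 1.5-fold between the controls were 3.64% of all genes tested upward and 2.74% downward, and 0 of these 9 genes. Their median log2 fold change with GAP43 was -0.42 with all libraries and -0.30 without control replicate 2. Lower at an unadjusted p under 0.05 was 1 of the 9, TRAP1, against 2.84% of all genes tested (40.5 and 44.3 FPKM against 30.3 and 30.9 FPKM, limma adjusted p = 0.692). DNAJA3 and LONP1 followed, with log2 fold changes of -0.42 and -0.54.

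Some of the 10 genes are also induced in other ways, DDIT4 by hypoxia and SESN2 by p53, so targets of both were read beside them. Of 7 hypoxia targets, 6 were at least 1.5-fold higher in control replicate 2, against 3.64% of all genes tested. Their median difference was 1.18 on the log2 scale. NDRG1 was at 1.55 and 9.62 FPKM in the controls and at 4.85 and 5.64 FPKM with GAP43, and ADM (adrenomedullin) was at 2.46 and 11.8 FPKM and at 8.76 and 5.09 FPKM. For both genes, as for DDIT4, the GAP43 libraries lay between the controls. With all libraries 0 of the 7 passed an unadjusted p under 0.05 with limma, against 2.84% of all genes tested lower and 3.05% higher. The smallest p were those of ANKRD37 (log2 fold change 0.62), PFKFB4 (0.39) and SLC2A1 (-0.19). Without control replicate 2 the median log2 fold change of the 7 was 0.91, against 0.21 with all libraries. Control replicate 1, the control then left, was the lowest library for each of the 7. Of 7 p53 targets, 2 (GADD45A and CDKN1A) were at least 1.5-fold higher in control replicate 2, with a median of 0.18, and between GAP43 and control 0 passed, the smallest p being those of BTG2 (log2 fold change 0.26), GADD45A (-0.28) and FAS (0.20). The part of hypoxia targets in the difference between the controls was not tested.

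The genes whose pattern over the 4 libraries was most like that of ATF4 were sought among 4439 genes, protein-coding and with a mean of at least 10 FPKM, by the root mean square difference of log2 values after removing each mean. The closest was SHMT2, the mitochondrial serine hydroxymethyltransferase, with a difference of 0.0327 on the log2 scale and values of 93.3 and 156 FPKM in the controls and 85.2 and 64.9 FPKM with GAP43. It was followed by CDC42EP1 (0.0686), RSL24D1 (0.0688), WARS (0.0689) and MRPS10 (0.0746). ATF5, ATF3, CHAC1 and SESN2 averaged under 10 FPKM and were not compared. Of the other stress response genes, PCK2 was nearest to ATF4, at rank 7 with 0.0844, and DDIT4 farthest, at rank 4254 with 0.684. TRIB3 was at rank 3643 with 0.518, since it spanned a wider range of levels than ATF4. With 4 libraries in 2 groups many genes share such a pattern, and no p is given.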

How the data were processed

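Poly(A) RNA of 2 GAP43 and 2 control SW620 libraries was sequenced as paired ends. The deposited FPKM values were made by the authors from fragments per gene. In their processing notes the submitters list hg19 with TopHat2 2.0.13, Cufflinks 1.1 and Cuffdiff. Which tool counted, and whether by strand, was not given in the sources used here. GENCODE release 29 held 33057 of the 33845 gene IDs, and 96.4% of these had an equal start on GRCh38, and positions are therefore given on that build. For 9 of the 10 genes start and end were equal, and for DDIT3 the end differed. FPKM times gene length gave whole fragments for 100% of values (tolerance 0.01), and intervals used these.

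The 13507 genes that averaged 1 FPKM or more were compared as log2(FPKM + 1), with limma 3.58.1 under R 4.3.3 (variance prior with a trend, prior df 4.22), with 2-sided tests and Benjamini-Hochberg adjustment over all genes. A fold change on this scale understates that of low genes. Tables and figures used Python 3.11.15, pandas 2.3.3 and matplotlib 3.10.9. The 10 genes and the lists were chosen with earlier results of these data known. Named genes are the 10, up to 3 genes of each list with the smallest p, genes of a list past 1.5-fold between the controls where 3 or fewer were, and the 5 genes most like ATF4. GAP43 is the check of the labels, and other genes named were chosen after their values were seen. Alternatives were another pseudocount, no filter, other scalings, voom on recovered fragments, a constant prior variance, a replicate block and leaving out each library. Promoter sequences are from RefSeq, which matched all 10 genes.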

Additional observations from a re-analysis of the deposited data

How the results depend on the processing

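The 9 genes at least 1.5-fold higher in control replicate 2 were 9 in number under each of the scalings, the pseudocount of 0.1 and no filter. Of all genes, 798 of 13507 passed upward with the pseudocount of 0.1 and 841 of 31284 without a filter. It was 1185 of 18934 with the fixed sum, 395 of 13543 with the mean sum and 493 of 13449 with median-ratio scaling. At a 2-fold threshold, added after seeing the data, the number was 7 of the 10, where 145 of the 13507 genes tested passed upward. The number at least 1.5-fold lower in GAP43 replicate 2 was 5 with the pseudocount of 0.1 and 0 at 2-fold. Of all genes tested, 1511 and 167 were lower in these settings. Of the 10 genes, those lower with GAP43 at an unadjusted p under 0.05 numbered 2 in the analysis given, 1 without a filter, and 0 with FPKM scaled to a fixed sum or, as added after seeing the data, to the mean sum. With voom it was 3 (ATF4, TRIB3 and PCK2, not ATF5). The share of all genes that was lower was 2.84% in the analysis given, 2.16% without a filter and 1.38% with voom. It was 1.64% with the fixed sum and 1.58% with the mean sum. Over all genes the unadjusted count was 795, with 412 higher and 383 lower. It was 1746 without a filter, and scaling to the fixed sum moved the median of all genes from -0.04 to 0.12 and the split to 874 higher and 310 lower, scaling to the mean sum to 568 higher and 214 lower, median-ratio scaling to 345 and 458, and voom to 612 and 187. All 10 genes kept a negative fold change under those scalings and voom, where the median of all genes ran from -0.07 with median-ratio scaling to 0.12 with the fixed sum.

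Leaving out 1 library, the number of the 10 that were lower ran from 1 to 8, the number higher from 0 to 1, all genes at an unadjusted p under 0.05 from 347 to 4078, and all genes past the adjustment from 0 to 15. The log2 fold change of ATF3 ran from -1.0 to 0.17, that of DDIT3 from -1.05 to 0.50 and that of DDIT4 from -1.40 to 1.01, each lowest without control replicate 1 and highest without control replicate 2, and DDIT4 was also above 0, at 0.26, without GAP43 replicate 2. The cause was not tested. The replicate numbers are not stated to mark a shared batch, and the differences between replicates in the 2 groups correlated at -0.164 over 13507 genes. With a replicate block 6 of the 10 were lower at an unadjusted p under 0.05, against 2.81% of all genes, and 152 genes passed the adjustment, among them 4 of the 10, TRIB3 (limma adjusted p = 0.00173), CHAC1 (0.00318), ASNS (0.0111) and SESN2 (0.0386). That fit has 1 residual degree of freedom and an infinite estimated prior, so its p-values rest on the variance shared over genes and disregard the spread of each gene. With the numbers crossed, added after seeing the data, 7 of the 10 were lower, against 5.46% of all genes, with 1405 genes at an unadjusted p under 0.05 and 0 adjusted.

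The number of libraries, 2 a group, limits the tests, and depth was lowest for ATF3, with 52 to 232 fragments a library.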
